A study of Mus musculus with 2 samples.

Results

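Wnt2-positive cells of the E10.5 mouse second heart field were taken as cells of the middle and posterior dissections with at least 1 UMI (a molecule tag, counted once per captured transcript) of Wnt2 and at most 2 UMIs of Barx1. There were 144 such cells among 891 cells of the 2 dissections, 967 cells of the E10.5 sample and 1500 cells of the series. They are set against the 740 cells of the same dissections with no Wnt2 UMI, and each dissection is kept apart. The cells were chosen by their Wnt2 and Barx1 counts, so those 2 genes are described and support nothing.

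The study profiled single cells of wild-type (WT) embryos at E9.5 and E10.5 by droplet RNA sequencing, with 1 sample per stage. All cells, Wnt2-positive and Wnt2-negative alike, were WT and labelled Osr1+, and each held at least 1 Osr1 UMI, so Osr1 detection is no finding. A suffix of the cell barcode gives the dissected position, called a library here. The number of embryos per sample is not given in the labels, and with 1 sample per stage no comparison below has biological replicates. No test was made: all intervals are exact 95% intervals that cover counting error only.

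Wnt2 encodes a secreted Wnt ligand. In the mouse it is made by the mesoderm around the ventral foregut, which faces the Sonic hedgehog-producing endoderm on one side and the inflow of the heart on the other. Cells of this mesoderm that carry Wnt2, Gli1 and Isl1 are known as cardiopulmonary progenitors and give rise to lung mesenchyme and to parts of the inflow tract. Tbx5 acts with canonical Wnt signals in this field, and Barx1 marks the stomach mesenchyme that lies next to it.

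Wnt2 (chr6:17988940-18030585 on mm10, minus strand) is shown by its promoter, because it defines the cells, and Gal (chr19:3409915-3414544, minus strand) by its own, because it had the highest ratio by the rule for named genes. The RefSeq promoters (build GRCm38.p6, 250 bases before to 50 after the start, 5′ to 3′) lie at chr6:18030396-18030695 and chr19:3414495-3414794, both on the minus strand. Capitals mark matches to a T-box word (AGGTGT) or a Gli word (GGGTGGTC), which do not overlap.
Wnt2 promoter: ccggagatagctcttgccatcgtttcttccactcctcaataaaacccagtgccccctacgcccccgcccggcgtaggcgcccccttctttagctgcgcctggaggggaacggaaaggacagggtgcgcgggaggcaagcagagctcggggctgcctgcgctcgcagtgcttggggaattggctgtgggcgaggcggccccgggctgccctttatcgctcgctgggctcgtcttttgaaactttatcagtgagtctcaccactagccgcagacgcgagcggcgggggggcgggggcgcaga
Gal promoter: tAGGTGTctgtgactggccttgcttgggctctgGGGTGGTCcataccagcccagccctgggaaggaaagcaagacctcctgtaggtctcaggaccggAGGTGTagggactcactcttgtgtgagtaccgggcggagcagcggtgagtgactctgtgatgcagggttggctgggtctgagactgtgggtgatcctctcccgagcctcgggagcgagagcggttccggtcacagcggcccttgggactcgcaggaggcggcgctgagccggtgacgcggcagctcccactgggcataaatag

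Both strands were searched for these words and for a forkhead word (TGTTTAC) and a GATA word (AGATAA). The Wnt2 window holds none of the 4 words, which says only that these letters are not in it. Of the 11 genes that were 2-fold higher in Wnt2-positive cells of both libraries, 9 had a promoter in the table, and Gal, Gyg and Tnni1, 3 of the 9, hold the T-box word. The T-box word is found in 13.7%, the forkhead word in 3.65%, the GATA word in 11.2% and the Gli word in 0.807% of all 32851 promoters of this length. These shares count single promoters, of 27025 genes. The 3 of 9 counts genes, and a gene can have several promoters, so the 2 are not in like units. A match describes letters and is not a binding site.

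Wnt2-positive cells made up a like share of both libraries. They were 57 of 331 middle cells (17.2%, interval 13.3 to 21.7) and 87 of 560 posterior cells (15.5%, interval 12.6 to 18.8). No Wnt2 UMI was found in 45 anterior cells, where 3 counts of the total allow a share of up to 6.67% (exact upper limit 7.87%), or in 31 outflow tract cells, where they allow up to 9.68% (exact upper limit 11.2%). Median depth was 5337 UMIs in Wnt2-positive against 5257.5 in Wnt2-negative middle cells, and 5182 UMIs in Wnt2-positive against 5399 in Wnt2-negative posterior cells. After thinning every cell to 4000 UMIs, 45 middle cells (13.6%) and 70 posterior cells (12.5%) still met the rule. Among 64 cells with at least 3 UMIs of epithelial markers, which should lack Wnt2, 3 held a Wnt2 UMI (2 after thinning) and the median depth was 7142 UMIs.

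**Figure D1:**
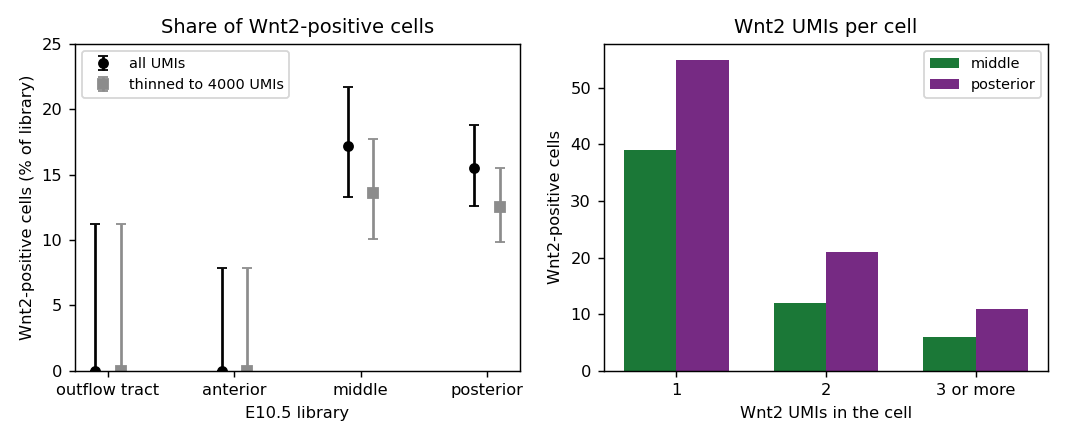
Left, percent of cells of each E10.5 library that were Wnt2-positive (at least 1 Wnt2 UMI, at most 2 Barx1 UMIs), with exact 95% intervals, for all UMIs and for cells thinned to 4000 UMIs. The middle and posterior libraries lie at 17.2% and 15.5%, and no cell was counted in the other libraries. Right, number of Wnt2-positive cells by their Wnt2 UMIs, where most cells held 1.

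Most members sat at the threshold. In the middle library 39 cells held 1 Wnt2 UMI, 12 held 2 and 6 held 3 or more, with a maximum of 5. In the posterior library 55 cells held 1 UMI, 21 held 2 and 11 held 3 or more, with a maximum of 7. Summed over the members, Wnt2 stood at 262 CPM (UMIs of a gene scaled to the sum of all UMIs of the cells) in the middle and 270 CPM in the posterior library. Because most members rest on 1 UMI, a cell with no Wnt2 UMI is not shown to lack Wnt2.

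Barx1, a homeobox gene of stomach mesenchyme, was rare in the middle library and frequent in the posterior one. In the middle library 54 members held 0, 2 held 1 and 1 held 2 Barx1 UMIs, and no cell with Wnt2 held more. In the posterior library 73 members held 0, 10 held 1 and 4 held 2 Barx1 UMIs, and 7 further cells with a Wnt2 UMI were kept out with 3 or more, of which 1 had exactly 3. At least 3 Barx1 UMIs were present in 7 of 94 posterior cells with Wnt2 (7.45%) and in 203 of 466 without it (43.6%), or 6.38% and 36.7% after thinning. Values against the 263 Barx1-low posterior cells without Wnt2 (2 or fewer Barx1 UMIs) are given where they differ.

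As a check of the label, markers of lung or foregut mesenchyme were read in the members. Foxf1, the forkhead gene of visceral mesoderm that responds to hedgehog, was detected in 38 of 57 middle and 59 of 87 posterior Wnt2-positive cells. Of the 8 markers listed for that mesenchyme, 5 were detected in middle and 7 in posterior Wnt2-positive cells, counting Wnt2 and Barx1, which the rule used, and Nkx3-2 was at 0 in both. Tbx4, a T-box gene of lung mesenchyme, and Nkx6-1, a homeobox gene of ventral foregut mesenchyme, were at 0 in the middle Wnt2-positive cells. The cells are therefore called by their rule, Wnt2-positive, and by no cell type.

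Single cells stood apart, and 1 barcode was shared by the middle and posterior libraries, neither copy being a member. One middle member carried 3675 of the 4314 globin and erythroid UMIs of the 57 members, 33.8% of its own 10873 UMIs. One posterior member carried 808 of the 904 cardiac sarcomere UMIs of the 87 members, out of 10340 UMIs of its own. The median member held 11 and 12 erythroid UMIs in the middle and posterior libraries, the same medians as Wnt2-negative cells. Scrublet, run per library, marked 9 of the 891 cells and 3 of the 144 members as doublets, neither of the 2 outlying cells among them. All cells were kept, and results that rest on the 2 cells are also given without them.

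Few genes separated Wnt2-positive from Wnt2-negative cells in both libraries. Of 4832 genes with a mean level of at least 20 CPM in each library, 11 (0.228%) were at least 2-fold higher and 6 (0.124%) at least 2-fold lower in Wnt2-positive cells of both libraries, 17 (0.352%) in all. Without the 2 outlying cells 10 were higher and 9 lower, 8 and 6 of them shared. In the middle library alone 90 genes (1.86%) were 2-fold higher and 72 (1.49%) 2-fold lower, and in the posterior library alone 39 (0.807%) were higher and 41 (0.849%) lower. The higher genes included secreted factors (Gal, Rspo2, Cxcl13, Bmp4), a pump subunit (Atp1b1), enzymes and membrane-associated proteins (Gyg, Plcb4, Cavin3, Arl4a) and 2 muscle genes (Tnni1, Myl7). The lower genes were Spint2, Epcam, Wfdc2, Krt8, Ifitm1 and Dcn.

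**Figure D2:**
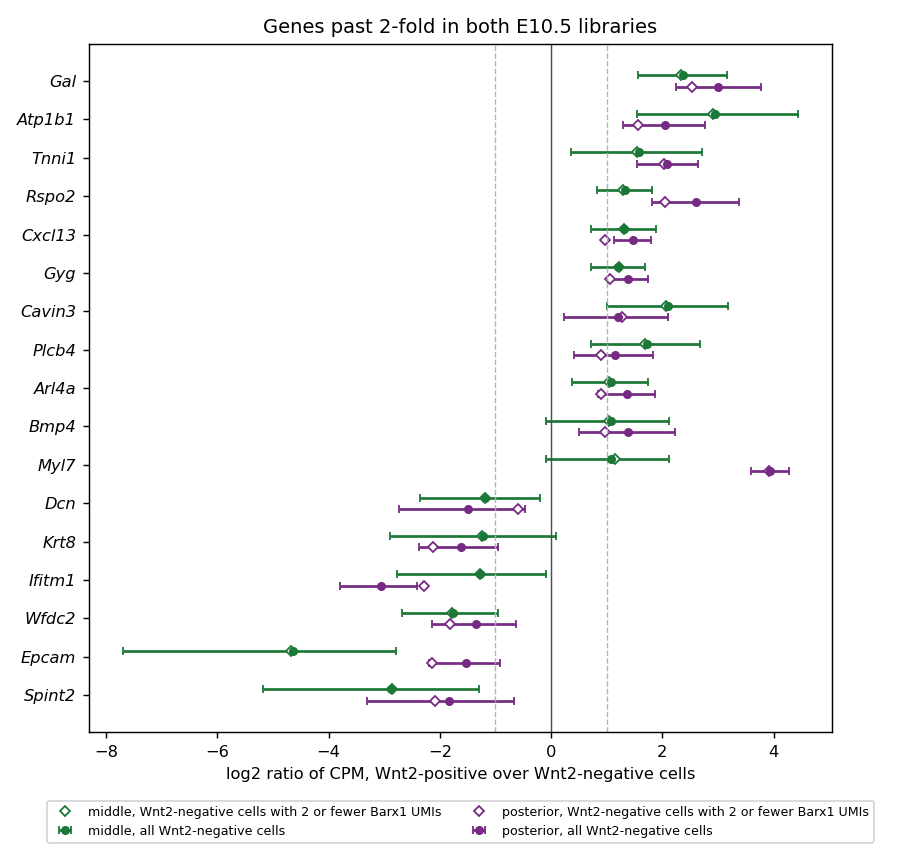
Log2 ratio of CPM, Wnt2-positive over Wnt2-negative cells, for the 17 genes past 2-fold in both E10.5 libraries (dots with exact 95% counting intervals, middle green, posterior purple). Open diamonds give the same ratio against Wnt2-negative cells with 2 or fewer Barx1 UMIs; dashed lines mark 2-fold.

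Gal, which encodes the neuropeptide galanin, had the highest ratio by the rule for named genes. It stood at 87.3 CPM in Wnt2-positive and 17.0 CPM in Wnt2-negative middle cells, a log2 ratio of 2.36 (interval 1.57 to 3.16). Posterior Gal stood at 74.8 CPM in Wnt2-positive and 9.37 CPM in Wnt2-negative cells, a log2 ratio of 3.00 (interval 2.25 to 3.77). Few cells carried it: 8 of 57 and 11 of 87 Wnt2-positive cells, against 4 of 274 and 19 of 466 Wnt2-negative cells. The cell with most Gal UMIs held 41.4% of the middle and 21.1% of the posterior total, and without those cells the log2 ratios were 1.63 and 2.67. After thinning, 3.13% of the epithelial-marker cells had a Gal UMI, against 12.3% and 10.3% of Wnt2-positive and 1.46% and 3.00% of Wnt2-negative cells in the middle and posterior libraries. The Wnt2-negative shares are thus at or below the share of the epithelial-marker cells, which rests on 2 of 64 cells (interval 0.38 to 10.8). That interval also overlaps those of both Wnt2-positive shares. All but 3 of the 64 cells had no Wnt2 UMI, so they are not a group apart from the Wnt2-negative cells.

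Rspo2, a secreted R-spondin that amplifies Wnt signals through Lgr receptors and is needed for mouse lung branching, was higher in Wnt2-positive cells of both libraries. Its level was 160 CPM in Wnt2-positive and 63.8 CPM in Wnt2-negative middle cells (log2 1.32, interval 0.82 to 1.81). Posterior Rspo2 was at 61.0 CPM in Wnt2-positive and 10.1 CPM in Wnt2-negative cells (log2 2.60, interval 1.82 to 3.38), and 2.04 against Barx1-low cells. The gene was spread over cells, with 27 of 57 and 17 of 87 Wnt2-positive cells against 64 of 274 and 22 of 466 Wnt2-negative cells. With thinned counts 42.1% of middle and 14.9% of posterior Wnt2-positive cells held it, against 20.1% and 3.86% of Wnt2-negative cells and none of the 64 epithelial-marker cells (1 before thinning). With all cells kept, Rspo2 was higher with more Wnt2 UMIs in both libraries, as was Plcb4 and none of the other higher genes. Cells with 0, 1 and at least 2 Wnt2 UMIs had 63.8, 126 and 233 CPM of Rspo2 in the middle and 10.1, 54.1 and 72.2 CPM in the posterior library. The interval of 2 or more over 1 excluded 0 in the middle (log2 0.88, 0.04 to 1.71) and not in the posterior library (0.42, -0.72 to 1.52). Posterior Gal, in the same order of Wnt2 UMIs, was at 9.37, 92.3 and 46.4 CPM, posterior Tnni1 at 23.6, 118 and 72.2 CPM, and middle Cxcl13 at 47.4, 140 and 68.0 CPM. The posterior member with 808 cardiac sarcomere UMIs held 1 Wnt2 UMI and is part of the class with 1. The order of Tnni1 and Myl7 by Wnt2 UMIs without that cell was not tested.

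Cxcl13, a chemokine best known for attracting B cells, was higher in Wnt2-positive cells of both libraries. It stood at 117 CPM in Wnt2-positive and 47.4 CPM in Wnt2-negative middle cells (log2 1.31), and at 220 CPM in Wnt2-positive and 79.5 CPM in Wnt2-negative posterior cells (log2 1.47, interval 1.13 to 1.80). It was detected in 42 of 87 posterior Wnt2-positive and 87 of 466 Wnt2-negative cells. Against Barx1-low cells its posterior log2 ratio was 0.97.

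Bmp4, a BMP ligand of heart and lung bud development, rested on few UMIs in both classes. It stood at 33.1 CPM in Wnt2-positive and 15.8 CPM in Wnt2-negative middle cells (log2 1.07), where the interval, -0.09 to 2.13, included 0. Posterior Bmp4 stood at 35.4 CPM in Wnt2-positive and 13.5 CPM in Wnt2-negative cells (log2 1.39, interval 0.49 to 2.23). The middle value rests on 11 and 27 UMIs, and without the member with most Bmp4 it was 0.81.

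Gyg and Arl4a were the most evenly spread of the remaining higher genes. Gyg, the glycogenin that primes glycogen synthesis, stood at 160 CPM in Wnt2-positive and 69.0 CPM in Wnt2-negative middle cells (log2 1.21), and at 189 CPM in Wnt2-positive and 72.5 CPM in Wnt2-negative posterior cells (log2 1.38). Arl4a, a small ARF-like GTPase, stood at 81.3 CPM in Wnt2-positive and 38.6 CPM in Wnt2-negative middle cells, and at 96.4 CPM in Wnt2-positive and 37.5 CPM in Wnt2-negative posterior cells. Its log2 ratios were 1.07 in the middle and 1.36 in the posterior library. Of 87 posterior Wnt2-positive cells, 39 held Gyg and 31 held Arl4a.

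Atp1b1, the beta subunit of the sodium pump, Cavin3, a caveola coat protein, and Plcb4, a phospholipase C, were lower in count. Atp1b1 stood at 36.1 CPM in Wnt2-positive and 4.68 CPM in Wnt2-negative middle cells (log2 2.95), and at 57.1 CPM in Wnt2-positive and 13.9 CPM in Wnt2-negative posterior cells (log2 2.04). Cavin3 had log2 ratios of 2.10 and 1.20 in the middle and posterior libraries, but 8 of its 15 middle UMIs came from 1 cell. Among members with at least 2 Wnt2 UMIs the posterior Cavin3 ratio lay in the other direction, at -1.32, with 5.16 CPM in these cells and 12.8 CPM in Wnt2-negative cells. Plcb4 had log2 ratios of 1.72 and 1.15, and in the middle library cells with 0, 1 and at least 2 Wnt2 UMIs had 14.6, 21.8 and 107 CPM; in the posterior library cells with 0 and at least 2 had 22.2 and 72.2 CPM. Without the member holding most of the gene, the log2 ratio was 0.91 for Cavin3 and 0.98 for Plcb4 in the posterior library, and 0.92 for Arl4a in the middle library, each under 2-fold.

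Tnni1, a troponin I of embryonic and slow muscle, was higher with and without the sarcomere-rich cell, and Myl7, the atrial myosin light chain, was not past 2-fold in the posterior library without it. Tnni1 stood at 33.1 CPM in Wnt2-positive and 11.1 CPM in Wnt2-negative middle cells (log2 1.57). Posterior Tnni1 stood at 100 CPM in Wnt2-positive and 23.6 CPM in Wnt2-negative cells (log2 2.09), and the log2 ratio was 1.35 without that cell. Myl7 stood at 33.1 CPM in Wnt2-positive and 15.8 CPM in Wnt2-negative middle cells, and at 535 CPM in Wnt2-positive and 35.05 CPM in Wnt2-negative posterior cells. The one posterior cell held 248 of the 272 Myl7 UMIs, and without it the log2 ratio was 0.46 against 3.93 with it. Of the 16 cardiac sarcomere genes 3 reached the limit, and 2 of these were past 2-fold in both libraries. Over all 16 the posterior members stood at 193 CPM without that cell and at 1779 CPM with it, against 114 CPM in Wnt2-negative cells. The log2 ratio without it was 0.76 (interval 0.41 to 1.09), and the same sum in the middle library was 84.3 CPM in Wnt2-positive and 97.7 CPM in Wnt2-negative cells.

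Against Barx1-low Wnt2-negative cells, 7 genes (0.145% of 4828) were 2-fold higher in both libraries, all among the 11: Gal, Atp1b1, Tnni1, Rspo2, Gyg, Cavin3 and Myl7. Cxcl13, Bmp4, Plcb4 and Arl4a had posterior log2 ratios of 0.97, 0.97, 0.90 and 0.90 there. Lower genes numbered 10 (0.207%), with Cldn7, Krt18, Tagln, Cadm1 and Mapk13 in addition to 5 of the 6.

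Of the 6 genes lower in Wnt2-positive cells, Epcam and Krt8 are on the list of epithelial markers. Epcam, the epithelial adhesion molecule, stood at 6.02 CPM in Wnt2-positive and 151 CPM in Wnt2-negative middle cells (log2 -4.65), and at 45.3 CPM in Wnt2-positive and 130 CPM in Wnt2-negative posterior cells (log2 -1.52). Spint2, a serine protease inhibitor, had log2 ratios of -2.87 and -1.83, Wfdc2, a secreted whey acidic protein, -1.76 and -1.35, and Krt8, a keratin of simple epithelia, -1.22 and -1.62 in the middle and posterior libraries. Cells with at least 3 UMIs of epithelial markers were 0 of 57 Wnt2-positive and 14 of 274 Wnt2-negative middle cells, and 1 of 87 Wnt2-positive and 47 of 466 Wnt2-negative posterior cells. When cells of the epithelial, cardiomyocyte and endothelial marker classes were left out (84 cells, 6 of them members; Epcam is one of the markers that chose them), none of the 6 genes was 2-fold lower in both libraries, and the Krt8 log2 ratios were 1.48 in the middle and 0.03 in the posterior library.

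Ifitm1, an interferon-induced membrane protein, and Dcn, the matrix proteoglycan decorin, are not limited to epithelium. Ifitm1 stood at 18.1 CPM in Wnt2-positive and 43.9 CPM in Wnt2-negative middle cells (log2 -1.28). The posterior difference was larger, with 37.4 CPM in Wnt2-positive and 311 CPM in Wnt2-negative cells (log2 -3.06, interval -3.80 to -2.40), and -2.28 against Barx1-low cells. In that library 14 of 87 Wnt2-positive and 279 of 466 Wnt2-negative cells held an Ifitm1 UMI. Dcn stood at 27.1 CPM in Wnt2-positive and 61.4 CPM in Wnt2-negative middle cells, and at 15.7 CPM in Wnt2-positive and 44.4 CPM in Wnt2-negative posterior cells; its posterior log2 ratio was -1.50, or -0.60 against Barx1-low cells.

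**Figure D3:**
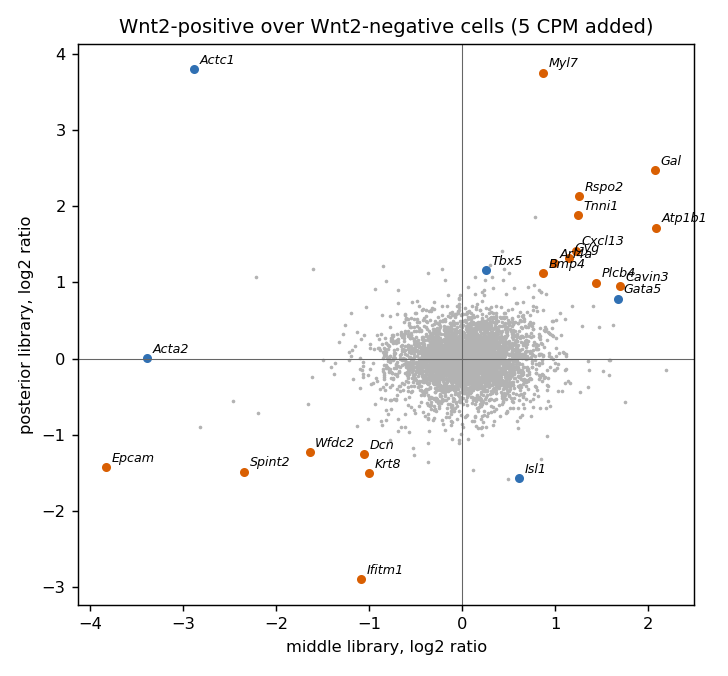
Log2 ratio of CPM (5 CPM added), Wnt2-positive over Wnt2-negative cells, in the middle (horizontal) against the posterior library (vertical), for the 4832 genes entered. Orange points are the 17 genes past 2-fold in both libraries; blue points are Tbx5, Isl1, Gata5, Actc1 and Acta2, of which Isl1 and Actc1 lie on opposite sides of 0.

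Of the genes known in the cardiopulmonary mesoderm, Tbx5 was higher and Isl1 lower in posterior Wnt2-positive cells than in all Wnt2-negative cells there; differences between the libraries were not tested. The list of cardiopulmonary and lung mesenchyme genes held 18 genes, of which 9 reached the expression limit. Only Rspo2 and Bmp4 of these 9 were 2-fold higher in both libraries (0.228% of all genes), 4 were above 0 in both (27.8% of all genes) and 1 was below 0 in both (24% of all genes). The median log2 ratio was 0.31 in the middle and -0.00 in the posterior library, against 0.03 and -0.01 over all genes.

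Tbx5, the T-box factor of the inflow and posterior second heart field, stood at 33.1 CPM in Wnt2-positive and 26.9 CPM in Wnt2-negative middle cells (log2 0.30, interval -0.80 to 1.27). Posterior Tbx5 stood at 92.5 CPM in Wnt2-positive and 38.5 CPM in Wnt2-negative cells (log2 1.26, interval 0.74 to 1.77), and against Barx1-low cells at 57.3 CPM (log2 0.69, interval 0.15 to 1.21). Posterior cells with a Tbx5 UMI were 35 of 87 Wnt2-positive and 83 of 466 Wnt2-negative cells. After thinning these shares were 35.6% and 14.4%, with 1.56% of epithelial-marker cells.

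Isl1, the LIM homeobox factor of second heart field progenitors, was higher in Wnt2-positive cells of the middle library and lower in those of the posterior one. In the middle library it stood at 108 CPM in Wnt2-positive and 69.0 CPM in Wnt2-negative cells (log2 0.65, interval 0.07 to 1.20). Posterior Isl1 stood at 43.3 CPM in Wnt2-positive and 138 CPM in Wnt2-negative cells (log2 -1.67, interval -2.36 to -1.06). Against Barx1-low posterior cells, at 67.0 CPM, the log2 ratio was -0.63 with an interval from -1.37 to 0.04 that included 0. With all UMIs, 22 of 57 middle and 18 of 87 posterior Wnt2-positive cells held Isl1, against 77 of 274 and 199 of 466 Wnt2-negative cells. After thinning the share was 26.3% of middle and 13.8% of posterior Wnt2-positive cells, against 21.9% and 33.7% of Wnt2-negative cells. Of the epithelial-marker cells, 28.1% also held Isl1 after thinning. Whether their UMIs come from expression or from background was not tested, so all these shares are given as detection only.

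No Wnt2-positive cell held both Isl1 and Gli1. Isl1 and Gli1 were found together in 0 of 57 middle and 0 of 87 posterior Wnt2-positive cells, which leaves shares of up to 6.27% and 4.15% inside the intervals. Among Wnt2-negative cells they were together in 5 of 274 middle and 19 of 466 posterior cells. Gli1, the transcription factor and direct target of hedgehog signalling, was sparse: 1 of 57 middle and 9 of 87 posterior Wnt2-positive cells held it, against 16 of 274 and 32 of 466 Wnt2-negative cells. Tbx5 and Isl1 were found together in 6 of 57 middle and 9 of 87 posterior Wnt2-positive cells, against 18 of 274 and 26 of 466 Wnt2-negative cells. The intervals of both classes overlapped in each library, and the difference between the classes was not tested.

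Of the other genes of the list, Tbx4 and Nkx6-1 were higher in posterior Wnt2-positive cells, and Foxf1 differed little against all Wnt2-negative cells. Foxf1 stood at 289 CPM in Wnt2-positive and 318 CPM in Wnt2-negative middle cells, and at 236 CPM in Wnt2-positive and 237 CPM in Wnt2-negative posterior cells. Tcf21, a bHLH factor of lung and epicardial mesenchyme, had log2 ratios of 0.22 and -0.34, Pdgfra, a growth factor receptor of mesenchyme, 0.75 and -0.54, Tbx3 0.14 and 0.28, and Hoxa5, a Hox gene needed for lung development, 0.34 and -0.20 in the middle and posterior libraries. Posterior Tbx4 stood at 19.7 CPM in Wnt2-positive and 4.16 CPM in Wnt2-negative cells (log2 2.24, interval 0.87 to 3.58), on 10 and 12 UMIs. Posterior Nkx6-1 stood at 63.0 CPM in Wnt2-positive and 33.3 CPM in Wnt2-negative cells (log2 0.92, interval 0.29 to 1.51). Of 274 middle Wnt2-negative cells, 4 held Tbx4 and 10 held Nkx6-1. Against Barx1-low posterior cells Pdgfra and Hoxa5 lay above 0, at 0.24 and 0.28, Foxf1 was at 0.37 (interval 0.05 to 0.69), and Nkx6-1 was at 0.34 with an interval that included 0. Wnt2b, the ligand most like Wnt2, had 2 UMIs or fewer in Wnt2-positive cells of either library.

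**Figure D4:**
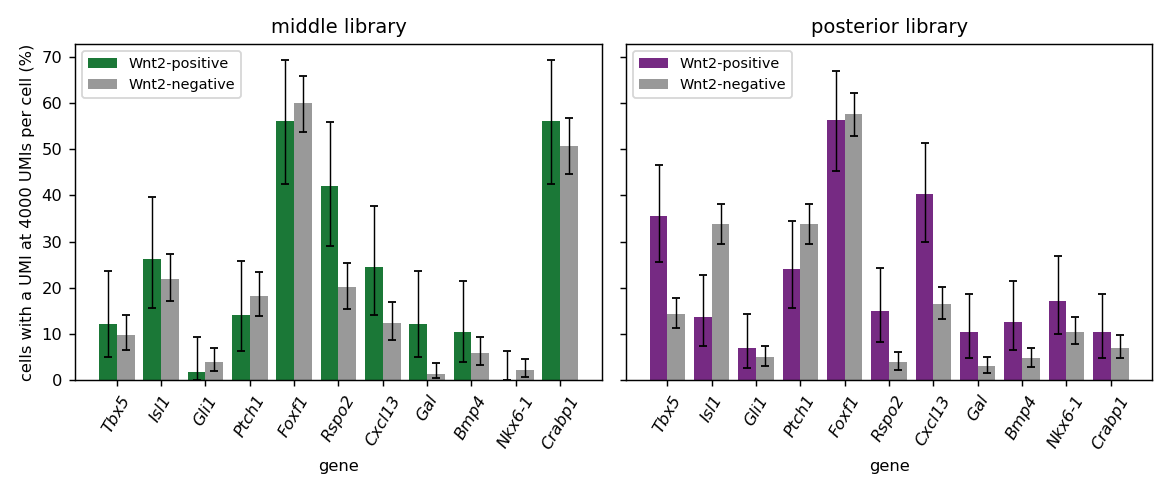
Percent of cells with a UMI of each gene after thinning every cell to 4000 UMIs, Wnt2-positive (coloured) and Wnt2-negative (grey) cells of the middle (left) and posterior (right) library, with exact 95% intervals. Tbx5 was in 35.6% of posterior Wnt2-positive and 14.4% of Wnt2-negative cells, while Foxf1 was near equal in both classes of both libraries.

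Hedgehog receptors and targets lay on both sides of 0, with Gas1 higher and Ptch1 lower in posterior Wnt2-positive cells. No one of the 4 genes that reached the limit, out of 14 listed, was past 2-fold in both libraries. Ptch1, the hedgehog receptor and target, stood at 45.2 CPM in Wnt2-positive and 51.5 CPM in Wnt2-negative middle cells (log2 -0.19), and at 82.6 CPM in Wnt2-positive and 123 CPM in Wnt2-negative posterior cells (log2 -0.58, interval -1.07 to -0.11), or -0.25 against Barx1-low cells. Gas1, a co-receptor of hedgehog ligands, had log2 ratios of 0.22 in the middle and 0.92 (interval 0.53 to 1.30) in the posterior library. Smo, the signal transducer, had log2 ratios of 0.26 and 0.12. Hhip, a decoy receptor and target, was under the limit and not among the 4, with log2 ratios of -0.02 and -0.04. The median over the list was 0.04 in the middle and 0.06 in the posterior library.

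Ptch1 in the posterior library varied with the number of Wnt2 UMIs. Cells with 0, 1 and at least 2 Wnt2 UMIs had 123, 50.9 and 134 CPM of Ptch1, and the interval of at least 2 over 1 was 0.44 to 2.39 on the log2 scale. Isl1 had the same shape there, with 138, 22.3 and 77.3 CPM. The classes are not matched for Barx1: 203 of the 466 cells with 0 Wnt2 UMIs held at least 3 Barx1 UMIs. Cells of the other classes held at most 2. The Isl1 level of Barx1-low cells without Wnt2, given above, lay below that of cells with at least 2 Wnt2 UMIs. Neither pattern runs in 1 direction with the Wnt2 count.

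Of the posterior second heart field and inflow genes, none of the 11 that reached the limit was past 2-fold in both libraries. Gata5, a GATA factor of early heart and foregut mesoderm, was nearest. It stood at 39.1 CPM in Wnt2-positive and 8.78 CPM in Wnt2-negative middle cells (log2 2.16, interval 0.97 to 3.33), and at 49.2 CPM in Wnt2-positive and 26.4 CPM in Wnt2-negative posterior cells (log2 0.90, interval 0.19 to 1.57), or 0.40 (interval -0.34 to 1.10) against Barx1-low cells. Gata6, its close relative, had log2 ratios of 0.99 and -0.06, and Aldh1a2, the enzyme that makes retinoic acid, 0.83 (interval 0.28 to 1.35) and 0.03. Meis1 had log2 ratios of 0.38 and -0.56, Nr2f1 -0.14 and 0.26, and Nr2f2 0.01 and -0.24. Shox2, a homeobox gene of the sinus venosus, stood at 39.4 CPM in Wnt2-positive and 7.29 CPM in Wnt2-negative posterior cells (log2 2.43, interval 1.47 to 3.39), where 8 of 87 and 10 of 466 cells held it and 1 cell held 40.0% of the Wnt2-positive UMIs; against Barx1-low cells the log2 ratio was 1.61. In the middle library Shox2 was at 12.04 CPM in Wnt2-positive and 22.2 CPM in Wnt2-negative cells.

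Genes that read or limit Wnt signals showed a mixed picture. Of 7 measured ligands, R-spondins and receptors, Rspo2 alone was 2-fold higher in both libraries, and of 6 measured targets and antagonists none was. Sfrp1, a secreted Wnt antagonist, had log2 ratios of 0.50 (interval 0.09 to 0.90) and 0.52 (interval 0.20 to 0.83). Sfrp2, its relative, stood at 151 CPM in Wnt2-positive and 122 CPM in Wnt2-negative middle cells (log2 0.31), and at 179 CPM in Wnt2-positive and 73.2 CPM in Wnt2-negative posterior cells (log2 1.29, interval 0.92 to 1.65), or 0.77 against Barx1-low cells. Nkd1, a feedback inhibitor induced by Wnt signals, had log2 ratios of -0.22 in the middle and 1.16 (interval 0.53 to 1.77) in the posterior library. Rspo3, another R-spondin, had log2 ratios of -1.93 (interval -4.25 to -0.32) and -0.02, and Ctnnb1, which encodes beta-catenin, -0.05 and -0.20. Axin2, the widely used Wnt target, was below the limit, with 2 of 57 and 5 of 87 Wnt2-positive cells against 29 of 274 and 29 of 466 Wnt2-negative cells.

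In the BMP and TGF-beta list, Bmp4 was the 1 gene of 8 measured past 2-fold in both libraries. Bambi, a decoy receptor, stood at 123 CPM in Wnt2-positive and 73.7 CPM in Wnt2-negative middle cells (log2 0.74), and at 132 CPM in Wnt2-positive and 66.3 CPM in Wnt2-negative posterior cells (log2 0.99, interval 0.57 to 1.40). Tgfb2, a TGF-beta ligand, had log2 ratios of 0.89 and 0.67, with both intervals above 0. Id1 and Id3, inhibitors of bHLH factors and common BMP targets, differed in direction: Id1 had log2 ratios of -0.94 and 0.32, and Id3 of -0.39 and 0.64 in the middle and posterior libraries. Id3 was abundant, at 867 CPM in Wnt2-positive and 1138 CPM in Wnt2-negative middle cells, and 864 CPM in Wnt2-positive and 556 CPM in Wnt2-negative posterior cells.

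Cell cycle genes differed little. S-phase genes had median log2 ratios of 0.11 and -0.09, and genes of G2 and M phase -0.07 and -0.00, in the middle and posterior libraries, with no gene of either list (20 genes each) past 2-fold in both. Of the G1 cyclins, Ccnd2 stood at 337 CPM in Wnt2-positive and 341 CPM in Wnt2-negative middle cells, and at 356 CPM in Wnt2-positive and 714 CPM in Wnt2-negative posterior cells (log2 -1.004, interval -1.23 to -0.78), or -0.30 against Barx1-low cells. Of 10 matrix genes, Dcn alone was past 2-fold in both, while Col3a1, a fibrillar collagen, had log2 ratios of 0.26 and 0.10, and Vcan, a proteoglycan of the cardiac jelly, 0.16 and 0.07. Retinoic acid genes (5 measured), Hox genes (6), FGF genes (1), guidance genes (6), stomach and gut mesenchyme genes (6), anterior second heart field genes (4) and stress genes (4) had no member past 2-fold in both libraries. Smooth muscle Acta2 and Tagln stood at 12.04 and 42.2 CPM in Wnt2-positive middle cells, against 173 and 210 CPM in Wnt2-negative middle cells, where 27 of 274 cells held at least 3 UMIs of smooth muscle markers, against 2 of 57 Wnt2-positive cells.

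Markers of other cells were found in both classes. Erythroid markers (8 genes) were at 12987 CPM in Wnt2-positive and 4123 CPM in Wnt2-negative middle cells. Without the globin-rich cell the Wnt2-positive value was 1989 CPM. One Wnt2-negative middle cell held 2394 of the 7048 erythroid UMIs of its class and was left in. The median middle cell held 11 erythroid UMIs in both classes. Posterior erythroid markers were at 2182 CPM in Wnt2-positive and 2353 CPM in Wnt2-negative cells. Cardiomyocyte markers (7 genes) were at 75.3 CPM in Wnt2-positive and 32.8 CPM in Wnt2-negative middle cells, and at 1149 CPM in Wnt2-positive and 84.0 CPM in Wnt2-negative posterior cells, the last values with the sarcomere-rich cell included. The middle erythroid and posterior cardiomyocyte sums of Wnt2-positive cells thus rest largely on the 2 outlying cells. The sarcomere-rich cell is posterior and has no part in the middle cardiomyocyte sum (log2 1.20, interval 0.46 to 1.90). A cardiomyocyte marker UMI was held by 31.6% of Wnt2-positive and 13.1% of Wnt2-negative middle cells. Summed epithelial markers (12 genes) were at 42.1 CPM in Wnt2-positive and 477 CPM in Wnt2-negative middle cells, and at 195 CPM in Wnt2-positive and 537 CPM in Wnt2-negative posterior cells. Hepatoblast markers (7 genes) were at 130 CPM in Wnt2-positive and 505 CPM in Wnt2-negative posterior cells. Endothelial markers (8 genes) were at 60.2 CPM in Wnt2-positive and 50.9 CPM in Wnt2-negative middle cells, and at 122 CPM in Wnt2-positive and 70.4 CPM in Wnt2-negative posterior cells. Epicardial or mesothelial markers (9 genes) were at 196 CPM in Wnt2-positive and 105 CPM in Wnt2-negative middle cells (log2 0.90, interval 0.47 to 1.32), and at 157 CPM in Wnt2-positive and 144 CPM in Wnt2-negative posterior cells. Their part in the values of single genes was not tested beyond leaving out the marker classes.

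Between positions, most genes that were 2-fold apart in Wnt2-positive cells lay on the same side of 0 in Wnt2-negative cells, and fewer were 2-fold apart there too. Of 5452 genes with at least 20 CPM on average, 458 (8.4%) were 2-fold higher and 207 (3.8%) 2-fold lower in posterior than in middle Wnt2-positive cells. Of the 458, 414 were also above 0 in Wnt2-negative cells, where 55.9% of all genes were, and of the 207, 170 were below 0, where 44.1% of all genes were. At least 2-fold in the same direction in Wnt2-negative cells were 162 of the 458 and 34 of the 207. Genes that can mark RNA quality or a library moved with position in both classes: mt-Co3, a mitochondrial gene, stood at 4452 CPM in posterior and 1219 CPM in middle Wnt2-positive cells (log2 1.87, and 1.91 in Wnt2-negative cells). Gm42418, which overlaps ribosomal RNA, had log2 ratios of 2.28 in Wnt2-positive and 2.08 in Wnt2-negative cells, and the histone gene Hist1h2ap had 3.02 and 2.95. Their part in the position counts was not tested, and position and library cannot be told apart. Without the 2 outlying cells the counts were 448 higher and 232 lower of 5460 genes, with 413 and 195 shared. The genes described here were chosen after their values were seen, except those of the cardiopulmonary, hedgehog and posterior second heart field lists that reached 20 CPM in each library.

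Nkx6-1 stood at 63.0 CPM in posterior and 0 CPM in middle Wnt2-positive cells, 6.97-fold higher when the 0 is set to 3 counts. The exact lower limit of the log2 ratio was 2.42. Hoxa5 stood at 140 CPM in posterior and 51.2 CPM in middle Wnt2-positive cells (log2 1.45, interval 0.67 to 2.31), with 1.99 in Wnt2-negative cells. Crabp1, a retinoic acid binding protein, was the reverse, at 37.4 CPM in posterior and 367 CPM in middle Wnt2-positive cells (log2 -3.30, and -2.94 in Wnt2-negative cells). Tcf21 and Tbx1, a T-box gene of pharyngeal heart progenitors, were also lower in posterior Wnt2-positive cells, with log2 ratios of -1.78 and -3.20, against -1.22 and -4.68 in Wnt2-negative cells.

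Isl1 and Shox2 went in opposite directions in the classes when all Wnt2-negative cells were taken. Isl1 stood at 43.3 CPM in posterior and 108 CPM in middle Wnt2-positive cells (log2 -1.32, interval -2.16 to -0.52), and at 138 CPM in posterior and 69.0 CPM in middle Wnt2-negative cells (log2 1.00, interval 0.70 to 1.31). Shox2 stood at 39.4 CPM in posterior and 12.04 CPM in middle Wnt2-positive cells (log2 1.71, interval 0.13 to 3.72). These levels rest on 20 and 4 UMIs, and the posterior UMIs were uneven between cells, as given above. In Wnt2-negative cells Shox2 stood at 7.29 CPM in the posterior and 22.2 CPM in the middle library (log2 -1.61). In the Barx1-low Wnt2-negative cells Isl1 was at 67.0 CPM in the posterior and 70.5 CPM in the middle library. Rspo2 was lower in posterior cells of both classes, by -1.39 in Wnt2-positive and -2.66 in Wnt2-negative cells on the log2 scale.

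**Figure D5:**
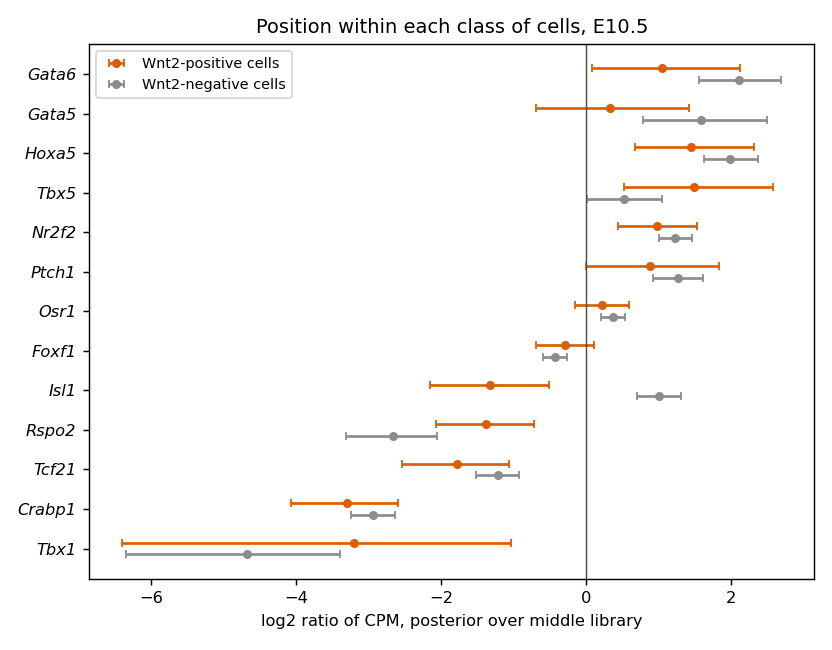
Log2 ratio of CPM, posterior over middle library at E10.5, in Wnt2-positive (orange) and Wnt2-negative (grey) cells, with exact 95% counting intervals. Most genes lie on the same side of 0 in both classes; Isl1 is at -1.32 in Wnt2-positive and 1.00 in Wnt2-negative cells.

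The same rule was applied to the E9.5 sample, which did not choose the cells. It took 22 of 61 middle cells (36.1%) and 217 of 418 posterior cells (51.9%), where the median depth was 26700 and 31257 UMIs. After thinning to 4000 UMIs it took 11 of 61 (18.0%) and 135 of 410 (32.9%). No barcode was shared between the stages. Of the 11 higher genes of E10.5, 7 (63.6%) were above 0 in both E9.5 libraries, as were 29.4% of all 4832 genes, and 4 (36.4%) were 2-fold higher in both, as were 0.621% of all genes. The 4 were Bmp4, Tnni1, Myl7 and Arl4a. These counts use all UMIs. Of the 7, Cavin3 and Plcb4 had middle log2 ratios of 0.01 and 0.28, resting on 2 and 4 UMIs and on 3 and 5. With thinned E9.5 cells neither had a UMI in middle Wnt2-positive cells, and middle Gyg was at -1.82. With E9.5 cells thinned to 4000 UMIs before the rule was applied, Tnni1 had log2 ratios of 1.89 and 2.42, Myl7 2.01 and 2.74 and Arl4a 1.77 and 1.39 in the middle and posterior libraries, the middle Arl4a value resting on 3 and 4 UMIs. Thinned Bmp4 was under 2-fold in the middle library, at 0.86 (interval -1.26 to 2.66), and at 2.21 in the posterior library. Of the 6 lower genes, 5 were below 0 in both E9.5 libraries, as were 25% of all genes, and Epcam and Spint2 were 2-fold lower in both.

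Bmp4 at E9.5 stood at 56.5 CPM in Wnt2-positive and 26.1 CPM in Wnt2-negative middle cells (log2 1.11), and at 61.3 CPM in Wnt2-positive and 6.25 CPM in Wnt2-negative posterior cells (log2 3.29, interval 2.76 to 3.88). Tbx5 stood at 30.1 CPM in Wnt2-positive and 2.80 CPM in Wnt2-negative middle cells (log2 3.43), and at 71.3 CPM in Wnt2-positive and 22.3 CPM in Wnt2-negative posterior cells (log2 1.68, interval 1.38 to 1.99). Gata5 had log2 ratios of 1.60 and 1.38, and Gyg of 0.87 and 2.19 in the middle and posterior libraries. After thinning, the posterior log2 ratios were 1.63 for Tbx5, 1.36 for Gata5 and 1.75 for Gyg. The thinned middle values rest on few UMIs: 1 in Wnt2-positive and 2 in Wnt2-negative cells for Tbx5 (log2 1.18), 1 and 1 for Gata5, and 1 and 16 for Gyg, whose log2 ratio there was -1.82 (interval -7.21 to 0.87). Tnni1 had 2.00 and 3.37 and Myl7 1.81 and 3.44, at levels of 475 and 1574 CPM in posterior Wnt2-positive cells, against 46.0 and 145 CPM in posterior Wnt2-negative cells.

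Other genes were sparse at E9.5 or lay in another direction. Rspo2 was rare, with 9.26 CPM in Wnt2-positive and 2.08 CPM in Wnt2-negative posterior cells (log2 2.15, interval 1.19 to 3.27) and 1 and 3 UMIs in the middle library. Thinned to 4000 UMIs, its posterior log2 ratio was 1.83 (interval -0.14 to 4.05). Gal had 24 UMIs in Wnt2-positive and 1 in Wnt2-negative posterior cells, and none in the middle library. Thinning left 1 Gal UMI in Wnt2-positive and 1 in Wnt2-negative posterior cells. Cxcl13 stood at 36.4 CPM in Wnt2-positive and 75.2 CPM in Wnt2-negative posterior cells (log2 -1.05, interval -1.28 to -0.82), the opposite direction to E10.5. The thinned posterior value of Cxcl13 was -1.52 (interval -2.54 to -0.62). Isl1 was lower in Wnt2-positive cells of both E9.5 libraries with all UMIs, with log2 ratios of -1.24 and -0.60. After thinning to 4000 UMIs the ratios were -0.08 (interval -1.83 to 1.34) in the middle and -0.57 (interval -1.21 to 0.03) in the posterior library. Both of these intervals included 0.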

How the data were processed

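The labels' protocols give trypsin dissociation, capture on a 10x Genomics controller, NextSeq sequencing and alignment to mm10. Cell Ranger 3.0 and Seurat are named in the submitters' processing notes; the sources used here do not give the cell filter or annotation version. What the authors deposited were raw counts of UMIs, whole numbers for 17348 genes by cell at E10.5. All cells were kept.

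UMIs were added up by class and library and scaled to CPM of that sum (332176 and 508265 UMIs in Wnt2-positive, 1709265 and 2881985 in Wnt2-negative cells of the middle and posterior libraries). Log2 ratios carry exact conditional Poisson intervals, shares exact Clopper-Pearson intervals (95%). List medians use 5 CPM added. Genes entered at a mean of at least 20 CPM of both classes in each library. The scripts were tested on simulated data. Tools were Python 3.11.15, numpy 2.4.6, scipy 1.17.1, scanpy 1.11.5 (Scrublet) and edgeR 4.0.16 (TMM factors only); symbols were placed with GENCODE vM21.

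The members, gene lists and markers were chosen with earlier results of these data known. Named genes are up to 12 in each direction past 2-fold in both libraries (without Wnt2 and Barx1), ranked by the ratio nearer to 0, genes of the lists cardiopulmonary, hedgehog and posterior second heart field, and of other lists those past 2-fold and up to 4 examples. Genes under the limit (Nkx6-1, Tbx4, Wnt2b, Gli1, Hhip, Shox2, Axin2), Rspo3, Nkd1, Tgfb2 and the position genes outside these lists were chosen after their values were seen. CPM of different genes are not corrected for length.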

Additional observations from a re-analysis of the deposited data

Results flagged for a closer look

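In all, 4 genes of the lists had intervals above 0 in one library and below 0 in the other, each library being 1 sample of cells, and the difference between the libraries was not tested. Isl1 had a log2 ratio, Wnt2-positive over Wnt2-negative, of 0.65 in the middle and -1.67 in the posterior library. Against Barx1-low posterior cells the Isl1 interval included 0, as given above. Id1 had -0.94 and 0.32, Id3 had -0.39 and 0.64, and Actc1, cardiac actin, had -4.16 and 4.11 in the same order. In the posterior library 97.6% of the Actc1 UMIs of Wnt2-positive cells came from 1 cell.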

How the results depend on the processing

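The count of genes 2-fold higher in both libraries was 11. It was 7 against Barx1-low Wnt2-negative cells, 33 with at least 2 Wnt2 UMIs per member (8 shared with the 11), 46 and 3 at a limit of 5 and 50 CPM, and 47 at 1.5-fold; under the other alternatives it lay between 8 and 13, and thinning to 4000 UMIs gave 9, of which 5 were shared. The count of lower genes was 6. It was 10 against Barx1-low cells, 10 after thinning (1 shared), 20 with at least 2 Wnt2 UMIs, 0 without cells of other types, 89 and 2 at 5 and 50 CPM, and 35 at 1.5-fold. The cardiopulmonary median of the middle library was 0.31, and 1.03 with at least 2 Wnt2 UMIs; the posterior share of Wnt2-positive cells was 15.5%, and 12.5% after thinning. Signs turned for Cavin3 in the posterior library (-1.32 with at least 2 Wnt2 UMIs) and Myl7 there (-1.02 after thinning), for Dcn in the middle library (0.12 after thinning, 0.24 without cells of other types), for Krt8 in the middle library (0.17 after thinning, 0.028 as the mean of single cells, 1.48 without cells of other types) and the posterior library (0.025 without them), for Epcam in the posterior library (0.17 without them) and Wfdc2 in the middle library (0.11 without them); the cause was not tested. Leaving out the globin-rich and the sarcomere-rich cell, or the cell with most UMIs of a gene, was chosen after seeing the data; the first gave 10 higher (8 shared) and 9 lower genes (6 shared). All 34 named values kept their direction with TMM scaling, without Scrublet doublets, and without mitochondrial and haemoglobin genes. No paired analysis was possible because each stage is 1 sample. The 57 and 87 members limit what can be seen of genes under 20 CPM.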
